A study of Mus musculus with 3 samples.

Results

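Simple epithelial keratins are the intermediate filament proteins of single-layered epithelia, and 7 of their genes, Krt7, Krt8, Krt18, Krt19, Krt20, Krt23 and Krt80, were followed here along the mouse intestine. They were picked as a list of gene symbols, drawn up with earlier results of these data known, and all 7 were found among the 24346 genes listed. The study profiled epithelial cells shaken free in 5 mM EDTA, with an incubation of 20 min at 37 °C for every library. Polyadenylated RNA from large, lower small and upper small intestine was sequenced. Each region had 1 library, so no difference below has a replicate check and no test between regions was possible. The names of all 3 libraries begin with SPFm, which the labels do not explain, and the sources used here give no genotype, age or sex and no number of animals per library. The upper library alone carries a strain entry, naming the mouse model MC38 of colorectal cancer. Should the entry hold, a difference of the upper library from the others by region cannot be told apart from one by strain.

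Keratin filaments are built from pairs of 1 type I (acidic) and 1 type II (basic) chain, and neither type forms a filament alone. Krt8 and Krt7 encode type II chains, Krt18, Krt19 and Krt20 encode type I chains, and in the intestine K8 pairs with K18, K19 and K20. The network lends simple epithelia resistance to mechanical stress, and mice without K8 develop colitis. Levels below are in FPKM, which scales fragments by transcript length and library size, so genes of different length can be compared. Groups of 3 values run in the order large, lower small and upper small intestine.

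The labelled cell type was supported by its markers, with Epcam, the epithelial adhesion molecule, at 806, 879 and 666 FPKM and Cdh1, encoding E-cadherin, at 302, 225 and 178 FPKM. Both belong to a list of 12 pan-epithelial genes, used below for 1 of the scalings, and the list varied by region. Vil1 was at 278, 913 and 974 FPKM, Esrp1 at 91.0, 43.7 and 33.0 FPKM and Grhl2 at 16.7, 7.11 and 5.43 FPKM. By the rule of size below, 2 were higher in the large than the lower library and 1 lower (beside 9.75% and 10.5% of measured genes). Against the upper library 3 were higher and 1 lower (beside 11.2% and 11.7%). The spacing of low values implied about 16.8, 21.9 and 14.6 reads per FPKM in a transcript of 2 kb. Markers of other cells that could bring keratin RNA were low. The 14 stratified squamous markers summed to 3.09, 2.89 and 2.93 FPKM, with Trp63, Krt5, Krt6a, Dsg3 and Krtdap listed at 0 throughout, and 6 of 7 listed mesothelial markers, all that were found in the files, summed to 2.43, 4.86 and 3.04 FPKM. The 11 leukocyte markers summed to 8.62, 103 and 96.9 FPKM and the 12 cell cycle genes to 221, 521 and 449 FPKM, so both sums were lower in the large intestine. Their part in the keratin differences was not tested. In bulk RNA, fewer cells of a type and less RNA per cell cannot be told apart.

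The members lie in the 2 keratin clusters of the mouse genome (GENCODE M21, GRCm38). Krt20, a type I keratin of differentiated cells on the villus and the colonic surface, lies on chromosome 11 at 99428403 to 99438150 (minus strand). Krt18, the classical partner of K8, lies on chromosome 15 at 102028180 to 102032027 (plus strand), a type I gene at the edge of the type II cluster and next to Krt8 at 101996698 to 102004482 (minus strand). Sequence before the gene start is shown for Krt20 and Krt18. Of the 3 libraries, the large one had the highest level of Krt18 and the lowest level of Krt20. Krt7, Krt8, Krt19 and Krt23 were also at their highest in that library. Both stretches come from the RefSeq promoter table (GRCm38.p6), run 5′ to 3′ along the gene's own strand and end before the start in either annotation.
Krt20, chr11:99438154-99438403, minus strand: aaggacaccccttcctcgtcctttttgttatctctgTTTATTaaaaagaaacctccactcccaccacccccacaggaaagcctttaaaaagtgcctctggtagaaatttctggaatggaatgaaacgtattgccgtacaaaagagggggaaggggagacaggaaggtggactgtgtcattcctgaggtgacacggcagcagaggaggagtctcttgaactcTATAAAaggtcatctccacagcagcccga
Krt18, chr15:102027966-102028179, plus strand: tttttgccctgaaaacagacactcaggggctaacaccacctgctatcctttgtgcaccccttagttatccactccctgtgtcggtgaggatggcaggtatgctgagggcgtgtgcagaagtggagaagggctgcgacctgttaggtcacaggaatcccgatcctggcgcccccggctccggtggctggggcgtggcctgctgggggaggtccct
Capitals mark matches to 4 motifs searched on both strands, TATAAA (the TATA box), GGGCGG (a GC box), TGANTCA (bound by AP-1) and TTTATT (the core bound by CDX factors). TATAAA lay at -29 to -24 of the RefSeq start of Krt20 and TTTATT at -214 to -209, and these matches did not overlap. In the whole window, 250 bases before to 50 after the start, Krt18 held none of the 4 motifs. Of the 7 members 5 were matched in the table. Krt8 held 2 overlapping TATAAA matches at its RefSeq start, at -1 to 5 on the gene's strand and -3 to 3 on the other strand, Krt7 held 4 matches to GGGCGG and 1 to TTTATT, and Krt23 held none. Of 32851 promoters of this length, 13.6% held TATAAA, 35.7% GGGCGG, 7.81% TGANTCA and 19.6% TTTATT. A match describes the letters and not a bound site.

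Krt8 was the most abundant member in every library. It was at 2845, 2676 and 1682 FPKM, and ranked 6, 15 and 35 among 23038 genes when short RNA genes were left out. The large and lower libraries were close and the upper library was low. The large to upper ratio was 1.69 (1.67 to 1.72) and the large to lower ratio 1.06 (1.05 to 1.08), where each bracket holds a 95% Clopper-Pearson interval on implied reads, for counting error only. Both ratios depend on the choice of scaling, which the brackets between libraries, here and below, leave out. On the log2(FPKM + 1) scale the large minus lower difference of Krt8 was 0.09 as deposited. It was -0.09 when libraries were brought to the same median of 12 pan-epithelial genes, so its sign was not fixed. The large minus upper difference of Krt8 kept its sign but not its size. It was 0.76 as deposited, 0.25 with that median and 1.17 with libraries brought to the same sum.

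Krt7, on chromosome 15 at 101411043 to 101430313 (plus strand), is the other type II member above 1 FPKM and encodes a chain of ducts and many simple epithelia. It was far less abundant than Krt8, at 86.2, 62.9 and 40.97 FPKM, with the large intestine highest and the upper small intestine lowest. The large to lower ratio was 1.37 (1.20 to 1.57) and the large to upper ratio 2.10 (1.77 to 2.50). Krt80, a type II gene of several epithelia on chromosome 15 at 101347444 to 101370162 (minus strand), was listed at 0, 0.107 and 0.24 FPKM. The values above 0 stand for about 3 and 5 reads, so Krt80 was not measured by the minimum of 1 FPKM used here, and a count of 0 in the large library allows up to 0.127 FPKM (3 reads, counting error only).

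Among type I genes Krt19, on chromosome 11 at 100140810 to 100148665 (minus strand), was the most abundant. It encodes the smallest keratin, which nearly lacks a tail domain, and was at 2437, 1819 and 1199.8 FPKM. The large library was highest and the upper library lowest, with a large to lower ratio of 1.34 (1.32 to 1.36) and a large to upper ratio of 2.03 (1.99 to 2.07). Krt18 had the same order at a lower level, 316, 232 and 151 FPKM. Large stood to lower as 1.36 (1.30 to 1.43) and to upper as 2.10 (1.98 to 2.23). The ratio of Krt19 to Krt18 within a library was 7.70 (7.45 to 7.97), 7.84 (7.57 to 8.11) and 7.97 (7.57 to 8.40), with intervals that overlapped across all 3 libraries. These genes lie on different chromosomes.

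Krt20 had another pattern. It was at 361, 968 and 702 FPKM, lowest in the large library, as were 41.6% of the 12579 genes at 1 FPKM or more in at least 1 library, and highest in the lower. The lower library was 2.68 (2.60 to 2.76) times the large one, the upper library 1.94 (1.88 to 2.01) times the large one, and the lower library 1.38 (1.35 to 1.41) times the upper one. Krt20 ranked 214, 80 and 142 among the genes without short RNA genes. In the large intestine it was thus near Krt18, with a Krt20 to Krt18 ratio of 1.14 (1.09 to 1.19), and in the small intestine far above it, with ratios of 4.17 (4.03 to 4.32) and 4.66 (4.42 to 4.92).

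Krt23, a type I gene known to be induced by histone deacetylase inhibitors, lies on chromosome 11 at 99477974 to 99493137 (minus strand) and was the lowest measured member. It was at 7.13, 2.15 and 2.92 FPKM, about 94, 37 and 33 implied reads, with the large library highest. The large to lower ratio was 3.32 (2.24 to 4.97) and the large to upper ratio 2.44 (1.65 to 3.80). The upper to lower ratio of 1.36 (0.809 to 2.19) was not detectable as a difference at this depth.

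**Figure D1:**
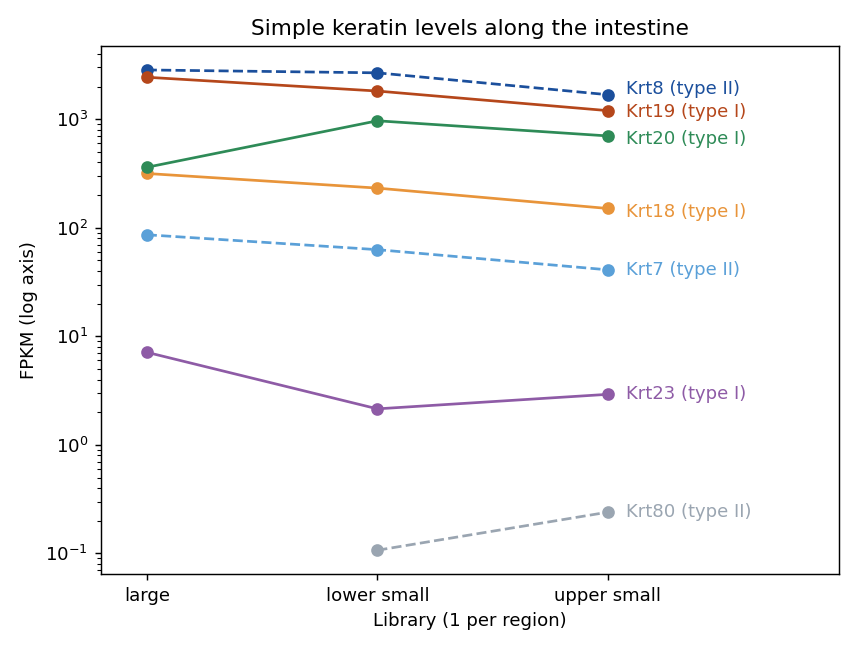
Level of each member in FPKM (log axis) in the large, lower small and upper small intestinal library, 1 point per library, with solid lines for type I and dashed lines for type II genes. Krt8, Krt19, Krt18 and Krt7 are highest in the large and lowest in the upper library, Krt20 is at 361 FPKM in the large and 968 FPKM in the lower library, and Krt80 has no point in the large library because it was listed at 0.

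Ratios between genes of 1 library do not depend on how libraries were scaled to each other. Relative to Krt8, Krt20 was at 0.127 (0.123 to 0.130) in the large, 0.362 (0.356 to 0.367) in the lower and 0.417 (0.407 to 0.427) in the upper library. The Krt20 to Krt8 ratio was therefore 2.85 times as high in the lower and 3.29 times as high in the upper small intestine as in the large intestine. Against Krt19 the same factors were 3.59 and 3.95, and against Krt18 they were 3.66 and 4.09. Against Krt8 the other abundant members differed less between regions. Krt19 was at 0.857, 0.680 and 0.713 of Krt8, Krt18 at 0.111, 0.0867 and 0.0895, and Krt7 at 0.0303, 0.0235 and 0.0244, each highest in the large intestine. In the lower library these 3 ratios were 0.793, 0.780 and 0.775 of their large intestinal value, a like factor for the 3 genes. Krt23 was at 0.00251, 0.000802 and 0.00174 of Krt8.

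**Figure D2:**
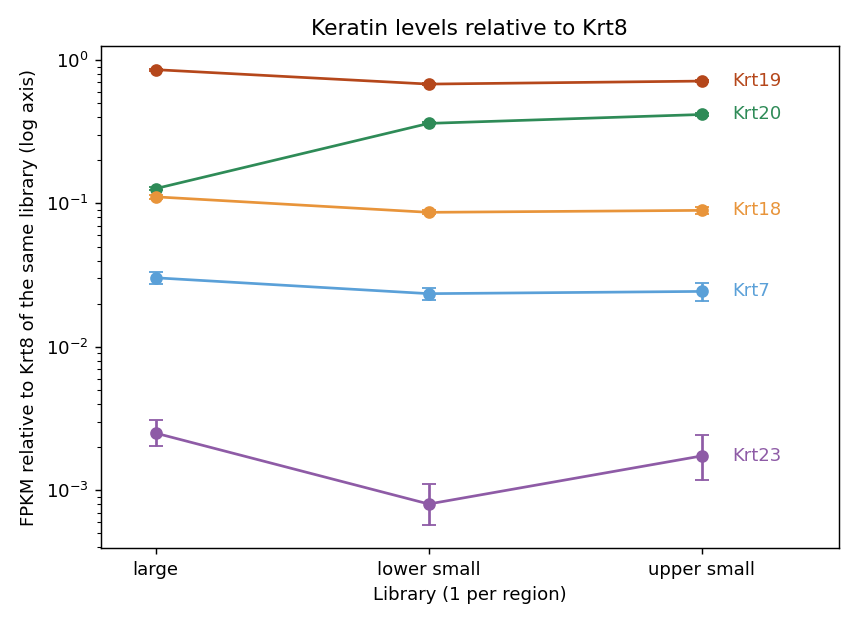
FPKM of 5 members divided by the FPKM of Krt8 in the same library (log axis), by region, with bars for 95% Clopper-Pearson intervals on implied reads (counting error only). Krt20 is at 0.127 in the large and 0.417 in the upper library, while Krt19, Krt18 and Krt7 stay in nearly parallel lines.

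Because type I and type II chains pair, the summed levels of the 2 types were compared within each library. Type I members summed to 3122, 3020.4 and 2055 FPKM and type II members to 2931, 2739 and 1723 FPKM. The type I to type II ratio was 1.07, 1.10 and 1.19, so the sums were similar in every region although both were lowest in the upper library. In implied reads, which are not corrected for length, the ratio was 0.889, 0.960 and 1.04. In the large and lower libraries the type in excess thus depended on the correction for length. In the upper library type I was in excess both ways, with Krt7 taken at its shortest coding transcript, of 642 bases. Its longest, of 4094 bases, would imply more type II reads, so the small excess in reads there was not secure. The type II sum was nearly all Krt8, at 97.1%, 97.7% and 97.6%. The makeup of the type I sum differed by region. Krt19 made up 78.1% of it in the large, 60.2% in the lower and 58.4% in the upper library, Krt18 10.1%, 7.68% and 7.33%, and Krt20 11.6%, 32.0% and 34.1%. The 7 members together held 1.16%, 0.891% and 0.545% of the summed FPKM of all genes.

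**Figure D3:**
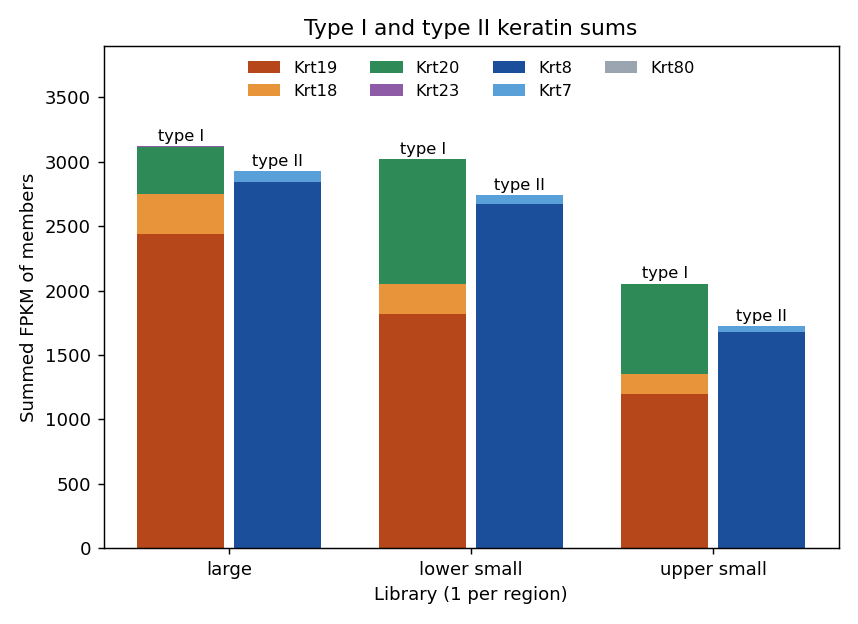
Summed FPKM of type I members (left bar of each pair) and type II members (right bar) in each library, stacked by gene. The bars of a pair are of similar height in each region, at 3122 and 2931 FPKM in the large library, and the Krt20 segment is the shortest in the large library.

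The members were then counted by a rule of size, a difference of at least 1 in log2(FPKM + 1) between 2 libraries, among 6 members at 1 FPKM or more. Against the lower small intestine, Krt23 was higher in the large intestine with a difference of 1.37 and Krt20 lower with a difference of -1.42. With a pseudocount of 5 the difference of Krt23 was 0.76 and it was no longer called. That is 1 of 6 in each direction, beside 9.75% of 12376 measured genes called higher and 10.5% called lower. With so few members this share is near the background, and the median over the members was 0.43 beside 0.00 over all measured genes. Krt7, Krt18 and Krt19 were within the rule, at 0.45, 0.45 and 0.42.

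Against the upper small intestine, 4 of 6 members, Krt18, Krt7, Krt23 and Krt19, were higher in the large intestine and none lower, beside 11.2% of 12350 genes called higher and 11.7% called lower. All 4 lay just past the rule, at 1.07, 1.06, 1.05 and 1.02, and Krt20 lay just short of it in the other direction, at -0.96. Krt8 was at 0.76. The median over the members was 1.04, beside 0.00 over all genes. Brought to the same pan-epithelial median, none of the 4 passed as higher and Krt20 passed as lower, beside 920 and 2575 of 12411 genes. With a pseudocount of 5 Krt18 and Krt19 remained, beside 721 of 12350 genes higher. Brought to the same sum, Krt8 passed as well, at 1.17, beside 2214 of 12427 genes higher.

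Between the small intestinal libraries no member passed the rule, beside 3.92% of 11941 genes called higher in the upper and 2.92% called lower. The differences, upper minus lower, were -0.67 for Krt8, -0.61 for Krt7, -0.60 for Krt19, -0.62 for Krt18, -0.46 for Krt20 and 0.32 for Krt23. The median over the members was -0.60 beside -0.03 over all genes. Both comparisons of the large intestine share 1 large library, and these values are set side by side and are not independent. The order large over lower over upper held for 4 of 6 members, Krt7, Krt8, Krt18 and Krt19, beside 24.7% of the 12579 genes at 1 FPKM or more in at least 1 library.

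How libraries are scaled moved all genes together. Brought to the same sum, the median of all genes moved to 0.28 for large minus lower and 0.37 for large minus upper, and the share of higher among called genes went from 48.2% to 63.9% and from 49.0% to 69.0%. Brought to the same pan-epithelial median, these shares were 38.9% and 26.3%, with all-gene medians of -0.16 and -0.46, and for upper minus lower the share went from 57.3% to 76.7% with an all-gene median of 0.27. Leaving short RNA genes and the 100 most abundant genes out of the sum moved the large minus upper median to 0.12. Apart from Krt8 in large minus lower, no measured member changed sign in any comparison under the 3 scalings tried.

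**Figure D4:**
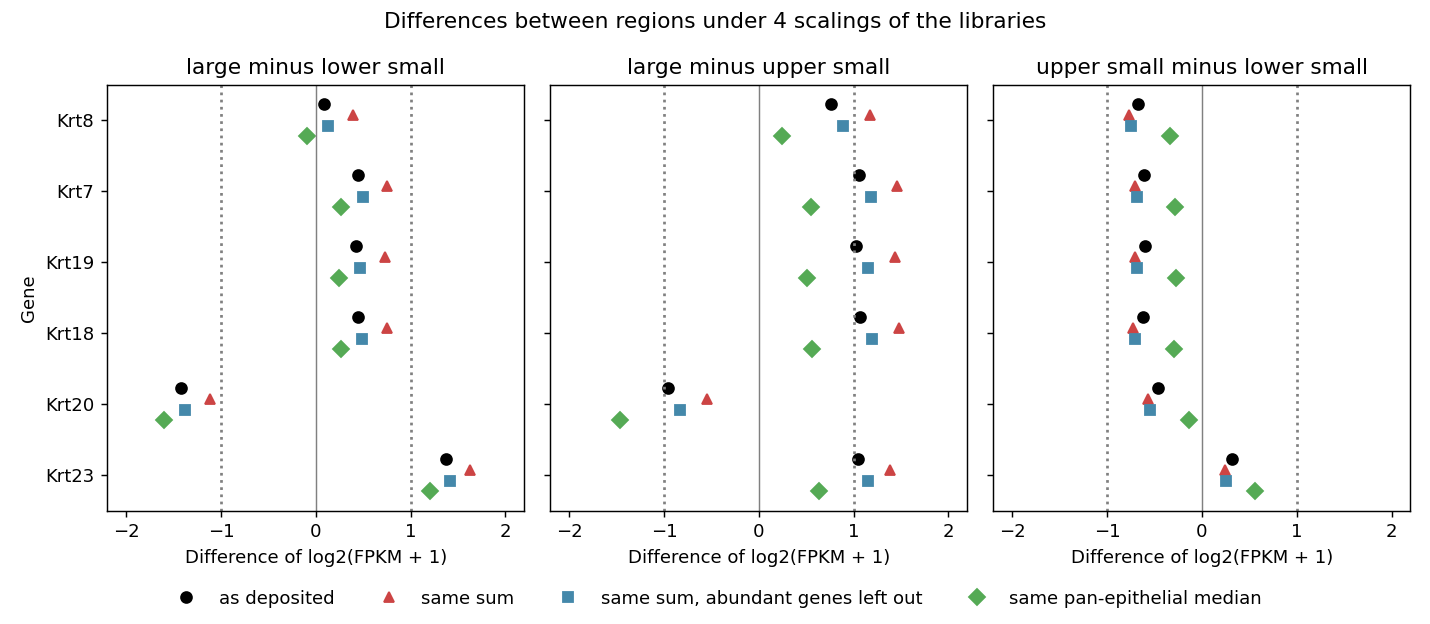
Difference of log2(FPKM + 1) for the 6 measured members in the 3 comparisons, as deposited and under 3 other scalings of the libraries, with dotted lines at the rule of size. Large minus lower, Krt8 runs from -0.09 to positive values by scaling, while Krt20 lies left of 0 and the other members right of 0 under all 4.

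Outside the members, keratin genes were low. Of 45 other keratin genes 24 were listed at 0 in all libraries and 5 reached 1 FPKM in at least 1, and the 7 members held 99.9%, 99.8% and 99.8% of the summed keratin FPKM. Krt10, a suprabasal epidermal keratin, was at 1.16, 1.92 and 1.80 FPKM, and Krt15, of basal cells, at 0.505, 0.611 and 1.08 FPKM. The hair keratin genes Krt83 and Krt84 were at 0.737, 1.13 and 0.12 FPKM and 1.34, 1.21 and 0.053 FPKM. Krt12, known as a corneal keratin, was at 0.464, 1.99 and 2.06 FPKM, lowest in the large intestine. It is a keratin gene next to Krt20, on the same strand with 6143 bases between them. Krt23, the keratin gene on the other side of Krt20 and on the same strand, was highest in the large intestine.

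Near-identical copies could take reads from a member. Among annotated transcripts, matches of at least 95% identity over 100 bases or more were found for Krt8 in 2 other genes, 1 of them the processed pseudogene Krt8-ps (98.6% over 941 bases), and for Krt80 in 1. None of these is a row of the files, so whether they took reads from Krt8 or Krt80 could not be seen. No such match was found for the other 5 members.

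**Figure D5:**
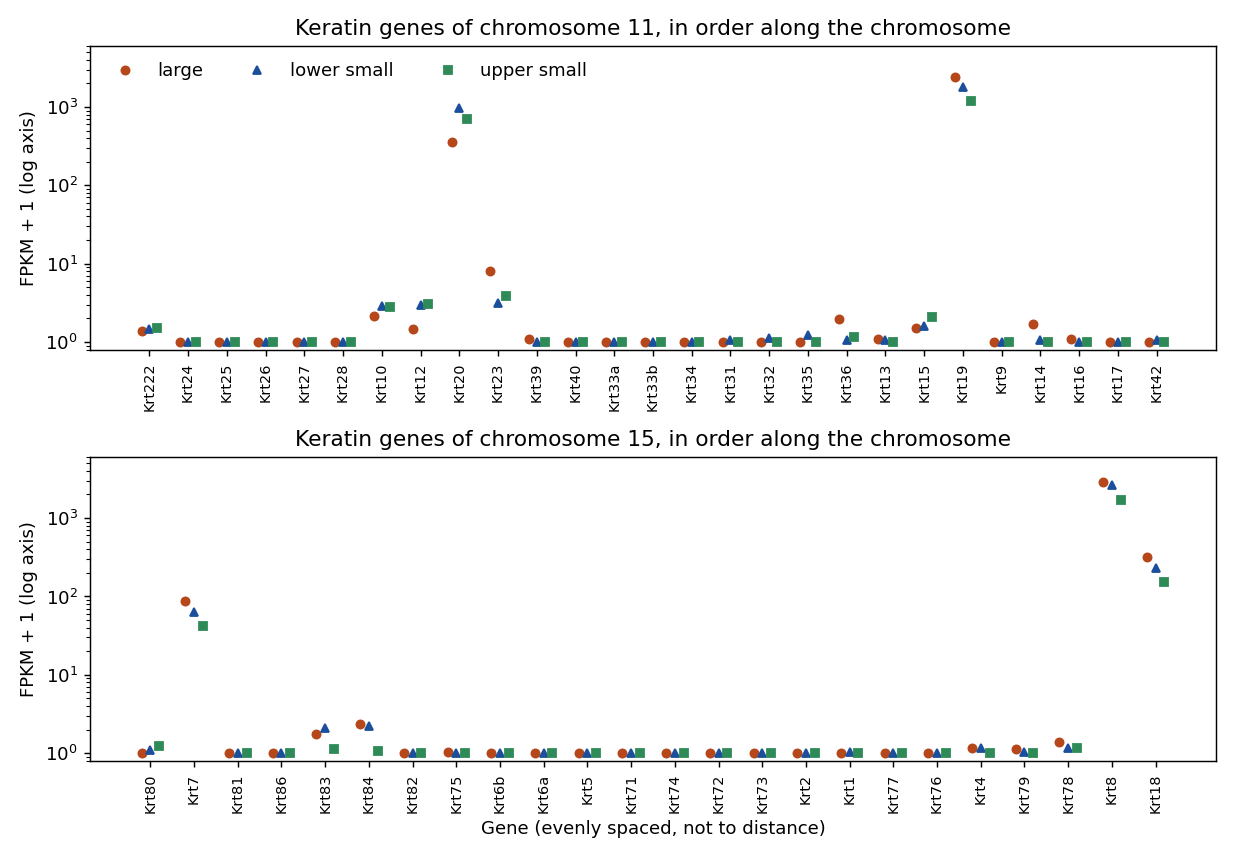
FPKM + 1 (log axis) of the 51 keratin genes with a position on chromosome 11 (top) or 15 (bottom), in order along the chromosome with even spacing, with 1 symbol per library. Krt8, Krt19, Krt20, Krt18 and Krt7 stand far above their neighbours, most of which lie near 1, which is 0 FPKM on this axis, and Krt80 lies near 1 as well.

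For each member at 10 FPKM or more, the genes nearest in level and pattern over the 3 libraries were sought, by Euclidean distance over log2(FPKM + 1). Nearest to Krt18 were Psap, encoding the lysosomal prosaposin, at 299, 220.1 and 153 FPKM (distance 0.11) and Cdh1 (0.25). Nearest to Krt7 were Cltb, a clathrin light chain, at 90.06, 62.4 and 43.8 FPKM (0.11) and Mkrn1 (0.16). Krt19 was nearest to Lgals4, encoding the intestinal galectin-4, at 2125, 1782 and 1545 FPKM (0.42) and to Rn45s (0.49), and Krt8 to the ribosomal protein genes Rpl41 (0.44) and Rplp1 (0.51). Krt20 was nearest to Sepp1, encoding selenoprotein P, at 358, 901 and 899.9 FPKM (0.37) and to H2-K1, an MHC class I gene, at 404, 761 and 792 FPKM (0.42). With only 3 libraries many genes lie close to any pattern.

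Genes that anchor or link keratin filaments to junctions and other structures formed a list of their own. Of 14 measured, the large intestine had 1 higher against the lower library and 2 against the upper, with none lower, and the medians were 0.12 and 0.27. Of all measured genes 9.75% and 11.2% were called higher and 10.5% and 11.7% lower. With so few genes listed, these counts are near the background in both directions. Dsp, encoding desmoplakin, which ties keratin filaments to desmosomes, was at 110.1, 68.2 and 46.6 FPKM, with a log2 difference of 1.22 from the upper library. Its order of the libraries was that of Krt8, Krt19, Krt18 and Krt7. Plec, Evpl, Eppk1, Tchp, Itgb4 and Cd151 of the same list had this order too. So did 24.7% of the 12579 genes at 1 FPKM or more in at least 1 library, so the order is not particular to Dsp. Dst, encoding the linker dystonin, was at 20.7, 7.78 and 8.53 FPKM, with differences of 1.31 and 1.19. Pkp3, encoding plakophilin 3, was at 33.4, 53.04 and 41.2 FPKM. Evpl, encoding envoplakin, was at 14.5, 12.99 and 7.22 FPKM, and Fam83h, which helps to organise keratin filaments, at 25.5, 26.2 and 17.2 FPKM. Among the other 14 intermediate filament genes listed, only the lamin genes Lmna, Lmnb1 and Lmnb2 and Vim, encoding the mesenchymal filament protein vimentin, were measured. Lmna, of the nuclear lamina, was at 147, 69.3 and 37.9 FPKM, higher in the large intestine by 1.07 and 1.93, and Lmnb1 at 17.5, 49.3 and 39.1 FPKM, lower by -1.44 and -1.11. Vim was at 3.89, 10.3 and 6.79 FPKM and was lower than in the lower library, by -1.21. Leukocyte markers were lower as well, as given above.

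Markers of cells that differ in keratin content were set beside these values. Of 8 goblet cell genes the large library had 2 higher and 1 lower against the lower library, and 4 higher and none lower against the upper. Over all measured genes 9.75% were higher and 10.5% lower in the first comparison, and 11.2% and 11.7% in the second, so the counts against the lower library are near the background. The summed level of the 8 genes was 9728, 10108 and 7640.1 FPKM, and it joins genes of opposite direction. Muc2 was at 1128, 330 and 151 FPKM, highest in the large library, and Tff3 at 992, 2215 and 1835 FPKM, lowest there. The 8 tuft cell markers found summed to 6.63, 11.5 and 20.5 FPKM. Tuft cells also express Krt18, and their part in its level was not tested. Of 12 cell cycle genes none was higher in the large intestine, 9 were lower than in the lower and 8 than in the upper library (beside 10.5% and 11.7% of all genes), so the summed level of these genes and that of Krt20 were both lowest in the large intestine.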

How the data were processed

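Epithelial cells of 3 regions of the mouse intestine were measured by RNA sequencing, with 1 library per region. The deposited tables hold, for each gene, a single value that was read as FPKM, a unit inferred from the numbers and from Cufflinks being the only quantifier named. TopHat2 2.0.13, Bowtie2 2.2.3, SAMtools 0.1.19, Cufflinks 2.2.1 and the build mm10 are named, per the submitters' processing notes. The sources used here do not state the annotation, the handling of multiply mapping reads or the strand setting.

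The members were the rows whose symbol was on a list of 7 keratin genes. The members and the gene lists were chosen with earlier results of these data known. Libraries were subtracted on the log2(FPKM + 1) scale, where low genes show too small a difference. A gene counted as measured if either library reached 1 FPKM, and as higher or lower, by size and with no test, from an absolute difference of 1. Reads per gene were implied from the spacing of low values and the shortest coding transcript of GENCODE M21 (GRCm38, the assembly of mm10). They gave Clopper-Pearson intervals at the 95% level (SciPy 1.17.1), which cover counting error only, since no molecular identifiers tell PCR copies apart. Of the low values, 75.8% (large), 73.6% (lower) and 76.4% (upper) fell within 0.15 of a whole read, too few for a test on counts. Genes to name were mainly the members, other keratin genes at 1 FPKM or more, and the 2 genes nearest to each member. Up to 4 genes of each list with the largest difference per comparison were also eligible. Not all of these are named, and some lists are given mostly as sums or counts. Similar transcripts were sought with BLASTN 2.17.0. The rule of size, the spacing and the intervals were tried on simulated data. The simulated reads followed the counting model and transcript lengths that these methods assume, so departures from them in the real data were not checked. Alternatives changed the pseudocount, the filter, the fold, the scaling of the libraries and the keratin genes summed.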

Additional observations from a re-analysis of the deposited data

How the results depend on the processing

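The alternatives were fixed for 3 comparisons and for the balance of the types. Large against lower, members higher in the large intestine numbered 0 with a pseudocount of 5 (beside 611 of 12376 measured genes higher), in place of 1. Against the upper small intestine, members higher in the large intestine numbered 4 in the main setting. With a pseudocount of 5 they numbered 2 (beside 721 of 12350 measured genes higher). When libraries were brought to the same pan-epithelial median they numbered 0 (beside 920 of 12411). When libraries were brought to the same sum they numbered 5 (beside 2214 of 12427), and under a 1.5-fold rule also 5 (beside 2415 of 12350). In that comparison 1 member was lower with the pan-epithelial median (beside 2575 of 12411 genes) and 1 with a 1.5-fold rule (beside 2444 of 12350), in place of 0. Upper against lower, 4 members were lower with a 1.5-fold rule (beside 893 of 11941 measured genes), in place of 0. The type I to type II ratio was 0.889, 0.960 and 1.04 in implied reads, and within counting error of the main value when all keratin genes were summed. Of the differences of single members over all alternatives, 104 stayed within counting error of the main value and 38 moved beyond it. Another 1 changed sign, that of Krt8 for large minus lower, which was -0.093 with the pan-epithelial median. Upper minus lower, the median over the members was -0.28 with the pan-epithelial median, in place of -0.60. The pseudocount, fold and filter leave the ratios within a library untouched by construction. Krt23 and Krt80 are limited by depth, at no more than 94 and 5 implied reads in any library. No paired analysis was possible because each region has 1 library. With 1 library per region, leaving out a replicate was not possible.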
